A study of Mus musculus with 130 samples.

Results

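The comparison set 1 RNA-seq library of mouse embryonic stem cells lacking all of Dnmt1, Dnmt3a and Dnmt3b (TKO, labelled Dnmt1/3a/3b-/-) against 1 library of cells lacking Dnmt3a and Dnmt3b (DKO, labelled Dnmt 3a/3b-/-). It used these 2 of the 10 RNA libraries, in a series of 130 samples, and asked what loss of the maintenance methyltransferase adds to loss of the de novo enzymes. Both groups share the Dnmt3a and Dnmt3b mutations and carry the 129S4/SvJae strain label, as does the wild-type line J1 (WT J1), whose single library is given beside them. The labels do not say when the lines were separated, nor how many clones stand behind each library, so a difference between genotypes and a difference between lines cannot be told apart. All 3 lines were grown on gelatin in serum with leukemia inhibitory factor, and libraries were made from total RNA by Smart-seq2, which copies full-length transcripts. A gene was taken as a member when it had at least 1 CPM, the read count scaled to library size, in either the TKO or the DKO library. This held for 13453 of the 52550 genes in each file, after 334 genes of chromosome Y were left out.

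DNA methylation in mammals is placed by Dnmt3a and Dnmt3b at CpG dinucleotides, and Dnmt1, guided by Uhrf1, copies it onto the new strand at each replication. Embryonic stem cells without Dnmt3a and Dnmt3b still hold Dnmt1 and lose methylation gradually with passage, whereas cells without all 3 enzymes lack it and still self-renew. Genes of germ cells with CpG-rich promoters, imprinted genes and many retrotransposons are the best known targets of this silencing.

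The TKO library held 17595063 counts, the DKO library 16159592 and the WT J1 library 16405528, within the range of 11436821 to 25609607 over all 10 RNA libraries. Each group had 1 library, so no spread between replicates is known and no test was made. Differences are given as log2(CPM + 1) in TKO minus DKO, and folds as ratios of CPM with their exact 95% conditional binomial interval, which covers counting error only. To be counted, a gene needed a log2 difference of 1 or more in either direction and an interval that excluded 1. At the minimum of 1 CPM, Pdyn (0.920 CPM in TKO and 1.01 CPM in DKO) lay just inside and Slc44a3 (0.974 CPM in TKO and 0.593 CPM in DKO) just outside.

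The targeted genes were read first. Dnmt1 (ENSMUSG00000004099.16, chromosome 9, 20907206 to 20959888, RefSeq GRCm38.p6) stood at 6.28 CPM in TKO, against 62.0 CPM in DKO and 45.9 CPM in WT J1. It was 9.88-fold lower in TKO than in DKO (interval 8.15 to 12.1, from 116 and 1046 counts), and no other measured gene had a larger log2 difference (-3.11). Dnmt3a stood at 4.71 CPM in TKO, against 4.27 CPM in DKO and 17.1 CPM in WT J1. Dnmt3b stood at 2.65 CPM in TKO, against 3.02 CPM in DKO and 26.5 CPM in WT J1. Dnmt3a and Dnmt3b were thus low in both mutants, with TKO to DKO intervals that include 1, and Dnmt1 was low only in the library labelled TKO among these 3. Counts per gene do not show which exons were deleted. Among 12 measured methylation writers and cofactors, Dnmt1 was the only one counted. Uhrf1, which brings Dnmt1 to replicated DNA, had 90.8 CPM in TKO, against 136 CPM in DKO and 93.6 CPM in WT J1 (log2 difference -0.58). Zfp57, which protects methylation at imprinted loci, had 107 CPM in TKO and 59.6 CPM in DKO (log2 difference 0.83). Dnmt3l, the catalytically inactive partner of the de novo enzymes, had 255 CPM in TKO, against 205 CPM in DKO and 33.2 CPM in WT J1.

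TKO and DKO cells were close to each other beside their distance from wild type. Of the 13453 genes measured, 236 were higher in TKO (1.75%) and 185 were lower (1.38%), or 3.13% either way. By the same rule 21.7% of genes were counted between TKO and WT J1 and 19.2% between DKO and WT J1. Between the libraries of WT TT2 cells (C57BL/6xCBA) taken at day 4 and at day 2 of treatment with the G9a and GLP inhibitor UNC0638, 4.23% were counted. The log2 difference lay within 0.5 of 0 for 77.0% of genes, and its median was -0.03. Most counted differences were small: 50 genes were higher and 25 lower at a log2 difference of 1.5, and 11 were higher and 6 lower at 2. Cd34 (log2 difference 1.00) was counted as higher and Dhrs7b (0.999) was not, and likewise Slc15a2 (-1.002) and Soat1 (-0.999) lay on either side of the lower limit. Deposited TPM values in place of CPM gave 274 higher and 132 lower genes.

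**Figure D1:**
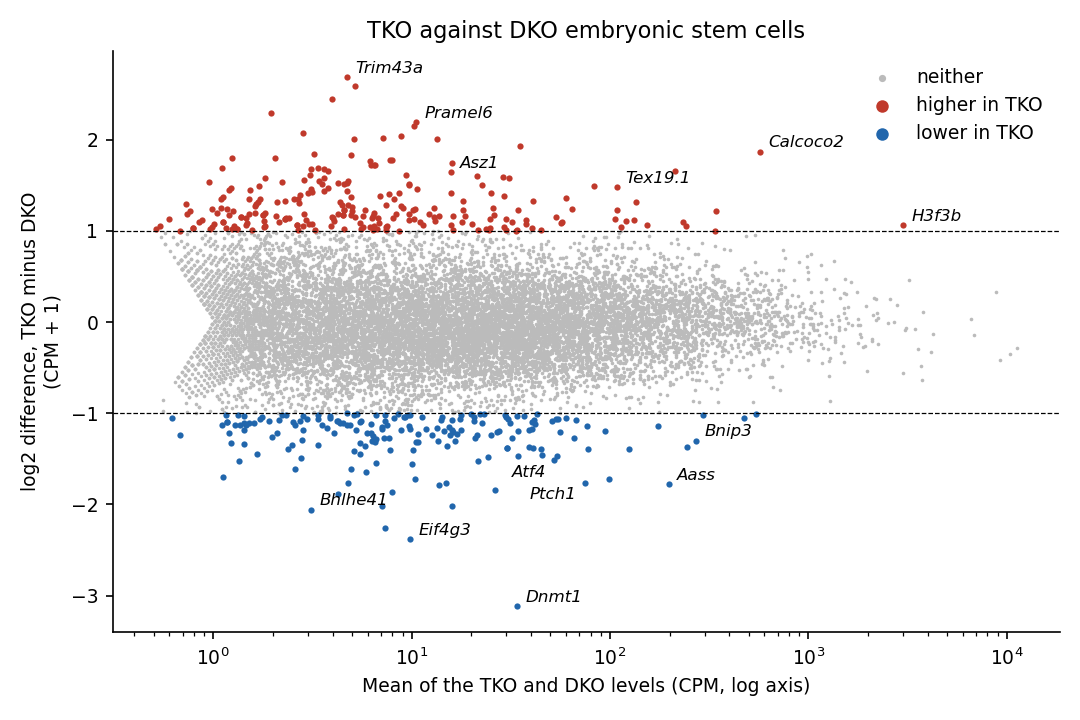
The log2 difference of TKO minus DKO (vertical) against the mean level of both libraries (horizontal, log axis) for 13453 genes, 1 point a gene, with the 236 higher genes in red, the 185 lower genes in blue and dashed lines at 1 and -1. Dnmt1 lies lowest at -3.11, and Calcoco2 stands apart on the right among the higher genes.

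Pramel6 (chromosome 2, 87506565 to 87510865) and its neighbour Pramel7, which in mouse stem cells promotes the breakdown of Uhrf1, led the protein-coding genes with at least 10 CPM. Pramel6 stood at 17.97 CPM in TKO, against 3.14 CPM in DKO and 0.0661 CPM in WT J1, 5.72-fold higher than in DKO (interval 4.27 to 7.80). Pramel7 stood at 14.8 CPM in TKO, against 2.85 CPM in DKO and no count in WT J1, 5.21-fold higher (interval 3.82 to 7.24). Of 5 measured Pramel genes these 2 were higher and none lower, beside 1.75% higher and 1.38% lower over all genes. The list median was 1.00 against -0.03 over all genes. Calcoco2 (chromosome 11, 96098916 to 96124560), an autophagy receptor, had the highest level in this group, 893 CPM in TKO against 243 CPM in DKO and 15.7 CPM in WT J1. It was 3.67-fold higher (interval 3.546 to 3.798).

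Of the genes known from the 2-cell embryo, all 13 measured members had a positive log2 difference, with a median of 0.68. Of the 13, 12 reached 1 CPM in DKO, while Zscan4-ps2 was measured through TKO alone, where it had to be higher. Beside 1.75% higher over all genes, 4 were counted as higher, Calcoco2, Gm5662, Zscan4d and Zscan4a. Calcoco2 made up most of the summed level of the list (965 CPM in TKO and 285 CPM in DKO), and the next member in level, Zfp640, had 12.4 CPM in TKO and 12.3 CPM in DKO. Zscan4d, of a telomere-regulating zinc finger family, had 9.42 CPM in TKO, against 3.56 CPM in DKO and 0.0661 CPM in WT J1 (2.65-fold, interval 1.96 to 3.61). Zscan4a had 8.88 CPM in TKO, against 3.91 CPM in DKO and 0.198 CPM in WT J1. The members share reads within a near-identical family, so single Zscan4 genes are uncertain. Of 40 genes in the list, 13 reached 1 CPM and 7 had no count in either library. Obox6 and Crxos, homeobox genes of the early embryo, were also among the largest increases, with 14.8 CPM in TKO and 4.56 CPM in DKO for Obox6 and 34.0 CPM in TKO and 11.3 CPM in DKO for Crxos.

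Of 15 measured oocyte-type genes 3 were higher and none lower, beside 1.75% higher and 1.38% lower over all genes. Their median was 0.44. Of the 15, 12 reached 1 CPM in DKO, while Oas1d, Gdf9 and Omt2b were measured through TKO alone, where they had to be higher. Kpna7, the oocyte and egg importin, had 7.52 CPM in TKO, against 1.96 CPM in DKO and no count in WT J1 (3.85-fold, interval 2.62 to 5.81). Nlrp4f had 18.6 CPM in TKO, against 7.23 CPM in DKO and 5.22 CPM in WT J1. Oas1d had 2.76 CPM in TKO and 0.534 CPM in DKO. Khdc3, a member of the subcortical maternal complex, had 147 CPM in TKO, against 74.2 CPM in DKO and 9.51 CPM in WT J1, just under the limit at a log2 difference of 0.98. The tripartite-motif genes Trim43a and Trim43b, near-identical genes known from the preimplantation embryo, were higher, with reads that may be shared. They were read in a list of retrotransposon restriction and editing factors, a role not shown here for either. Of its 13 measured members 3 were higher and 10 neither, beside 1.75% higher over all genes. Trim43a had the largest log2 difference among the higher genes named here, 2.69, but was measured through TKO alone, where it had to be higher. It had 8.88 CPM in TKO against 0.534 CPM in DKO (16.6-fold, interval 8.55 to 37.0, from 164 and 9 counts). Trim43b had 5.90 CPM in TKO and 1.30 CPM in DKO. Gata3, a trophoblast transcription factor, had 5.03 CPM in TKO, against 1.24 CPM in DKO and 0.0661 CPM in WT J1, and was the only one of 21 measured trophoblast genes counted, a share near the 3.13% over all genes.

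The germline list was drawn up from genes known for promoter methylation, which was not measured here, and some members are abundant in wild type, such as Syce2 with 342 CPM in WT J1. Of 63 measured, 7 were higher, 2 lower and 54 neither, beside 1.75% higher and 1.38% lower over all genes. The median of 0.04 stood beside -0.03 over all genes. Of the 63, 34 lay above 0 and 29 below. The 7 were Asz1, Tex101, Tex19.1, Wfdc15a, Sycp1, Dazl and Sohlh2, the last 3 named after their values were seen. Asz1, needed for the piRNA pathway, had 24.6 CPM in TKO, against 7.17 CPM in DKO and no count in WT J1 (3.43-fold, interval 2.80 to 4.22). Tex101, a germ cell surface protein, had 14.9 CPM in TKO, against 4.56 CPM in DKO and 0.859 CPM in WT J1 (3.26-fold, interval 2.52 to 4.26). Tex19.1, which protects germ cells against retrotransposons, had 160 CPM in TKO, against 56.8 CPM in DKO and 13.3 CPM in WT J1 (2.82-fold, interval 2.62 to 3.04). Those 3 stood in the same order, TKO above DKO above WT J1. Dazl, an RNA-binding protein of germ cells, had 165 CPM in TKO, against 75.9 CPM in DKO and 25.3 CPM in WT J1. Wfdc15a had 25.8 CPM in TKO, against 10.4 CPM in DKO and 1.06 CPM in WT J1. Sohlh2, a germ cell transcription factor, had 39.9 CPM in TKO, against 18.9 CPM in DKO and 17.7 CPM in WT J1. Sycp1, of the synaptonemal complex, had 14.5 CPM in TKO, against 6.05 CPM in DKO and 5.95 CPM in WT J1. Some other known germline genes lay close together in the mutants. Ddx4 had 18.1 CPM in TKO and 18.9 CPM in DKO, Dpep3 had 3.41 CPM in TKO and 3.20 CPM in DKO, and Fkbp6 had 99.7 CPM in TKO, against 78.3 CPM in DKO and 1.92 CPM in WT J1. These 3 were chosen after their values were seen, as were Tdrd12 and Syce1, which differed more without being counted. Tdrd12 had 200 CPM in TKO and 337 CPM in DKO, and Syce1 had 108 CPM in TKO and 57.4 CPM in DKO.

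The members counted as lower were retrogenes used in the testis. D1Pas1, an autosomal copy of an X-linked RNA helicase gene, had 2.22 CPM in TKO, against 12.03 CPM in DKO and 10.4 CPM in WT J1 (5.42-fold lower, interval 3.86 to 7.78). Rpl10l, an autosomal copy of a ribosomal protein gene, had 68.5 CPM in TKO, against 181 CPM in DKO and 63.7 CPM in WT J1 (2.64-fold lower, interval 2.47 to 2.82). DKO was thus the highest of the 3 libraries for both, and reads shared with their parent genes leave these values uncertain.

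The promoter windows of 4 of the higher germline genes and of 2 strongly lower genes, Aass and Xlr3c, show what these genes do and do not share in sequence. Each runs from 250 bases before to 50 bases after the RefSeq start (GRCm38.p6), 5′ to 3′ on the gene's strand, with each CpG in capitals. The windows lie at chr6:18109012-18109311 on the minus strand for Asz1, chr7:24672001-24672300 on the minus strand for Tex101, chr11:121145893-121146192 on the plus strand for Tex19.1 and chr17:50293571-50293870 on the minus strand for Dazl. Those of the lower genes lie at chr6:23132937-23133236 on the minus strand for Aass and chrX:73265341-73265640 on the minus strand for Xlr3c.
Asz1: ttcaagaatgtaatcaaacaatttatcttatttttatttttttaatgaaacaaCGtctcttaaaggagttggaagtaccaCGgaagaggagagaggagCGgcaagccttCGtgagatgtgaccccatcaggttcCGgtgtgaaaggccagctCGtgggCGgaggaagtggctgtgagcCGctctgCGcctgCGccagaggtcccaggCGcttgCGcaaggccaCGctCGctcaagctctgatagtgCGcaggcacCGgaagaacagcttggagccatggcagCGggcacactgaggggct
Tex101: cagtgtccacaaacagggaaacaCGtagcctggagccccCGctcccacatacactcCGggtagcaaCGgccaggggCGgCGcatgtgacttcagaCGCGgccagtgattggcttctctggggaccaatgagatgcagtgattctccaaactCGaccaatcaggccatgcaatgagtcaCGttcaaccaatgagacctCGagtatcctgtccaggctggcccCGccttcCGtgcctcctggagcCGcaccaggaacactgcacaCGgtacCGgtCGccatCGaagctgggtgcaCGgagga
Tex19.1: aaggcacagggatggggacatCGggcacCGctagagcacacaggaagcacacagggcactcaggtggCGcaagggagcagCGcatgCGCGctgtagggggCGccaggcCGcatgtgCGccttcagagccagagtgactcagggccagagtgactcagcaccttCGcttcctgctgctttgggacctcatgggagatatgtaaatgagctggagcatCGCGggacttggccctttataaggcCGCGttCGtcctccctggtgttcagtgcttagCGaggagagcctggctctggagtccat
Dazl: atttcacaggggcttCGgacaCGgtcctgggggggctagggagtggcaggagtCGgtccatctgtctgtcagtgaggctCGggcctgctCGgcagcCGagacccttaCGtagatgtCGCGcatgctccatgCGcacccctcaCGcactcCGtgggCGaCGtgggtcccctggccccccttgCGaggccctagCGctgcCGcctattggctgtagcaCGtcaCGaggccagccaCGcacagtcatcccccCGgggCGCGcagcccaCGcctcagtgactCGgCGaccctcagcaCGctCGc
Aass: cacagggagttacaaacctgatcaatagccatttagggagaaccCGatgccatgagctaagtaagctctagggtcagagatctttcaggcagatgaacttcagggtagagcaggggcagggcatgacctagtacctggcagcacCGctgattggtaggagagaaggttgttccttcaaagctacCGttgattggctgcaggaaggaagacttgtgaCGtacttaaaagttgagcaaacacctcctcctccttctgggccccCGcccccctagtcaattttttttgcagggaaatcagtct
Xlr3c: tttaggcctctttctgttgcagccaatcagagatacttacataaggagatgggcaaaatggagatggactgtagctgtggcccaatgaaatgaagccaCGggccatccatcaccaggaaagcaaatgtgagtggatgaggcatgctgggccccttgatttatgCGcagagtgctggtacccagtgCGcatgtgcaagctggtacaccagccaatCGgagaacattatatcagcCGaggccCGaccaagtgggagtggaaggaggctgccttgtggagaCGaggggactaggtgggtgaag

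The germline windows held 17 CpGs for Asz1, 19 for Tex101, 16 for Tex19.1 and 28 for Dazl, against 5 for Aass and 7 for Xlr3c. These windows do not stand for all counted genes: Pramel6 (3), Pramel7 (1) and Wfdc15a (9) were higher with few CpGs, D1Pas1 (15) and Rpl10l (13) were lower with more, and the median was 11 over the higher genes with a window and 16 over the lower ones. The median over every promoter window in the RefSeq table was 7, and over those of the measured genes 20. The 7 higher germline genes had a median of 17 CpGs and the 45 of the 54 uncounted ones with a window had 18, so CpG number alone did not set the counted genes apart within this list. The letters GCGGGA, searched on both strands, were in the windows of 2 of the 7 higher germline genes and in 44.4% of those of the uncounted ones. They were in 20.0% of all 32851 windows and 39.8% of those of measured genes. A match describes the letters in this window alone.

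**Figure D2:**
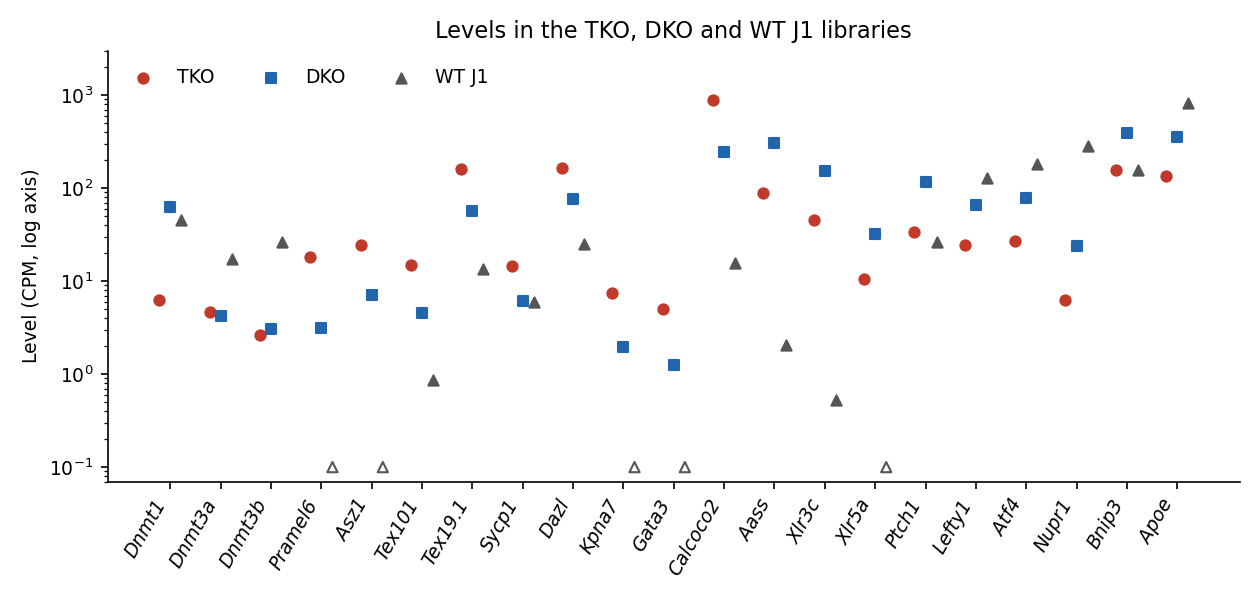
Levels in CPM (log axis) of 21 genes in the TKO (circles), DKO (squares) and WT J1 (triangles) libraries, 1 point a library. Open symbols at the bottom stand for levels under 0.1 CPM. From Pramel6 to Calcoco2 the TKO points lie highest, and from Aass to Apoe they lie below the DKO points.

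Across all genes off chromosome 11, the share counted as higher ran down with the CpG content of the window, while the share counted as lower did not run in 1 direction. It was 4.91% of 591 genes with under 5 CpGs, 2.72% of 1031 with 5 to under 10, 1.14% of 2727 with 10 to under 20, 0.470% of 2976 with 20 to under 30 and 0.309% of 1942 with 30 or more. The shares counted as lower in the same classes were 1.69%, 2.04%, 1.797%, 0.840% and 1.44%. Level moved with CpG number, since 195 of the 591 genes with under 5 CpGs and 1344 of the 1942 with 30 or more reached 10 CPM. Among genes with at least 10 CPM the share counted as higher was 4.62% in the class under 5 CpGs and 0.0744% in the class of 30 or more. The median window of the 108 higher genes off chromosome 11 with a listed start held 9 CpGs.

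Gene length moved with the difference as well. When genes off chromosome 11 were split into 5 equal groups by transcript length, the median log2 difference was 0.13 in the shortest group (up to 1162 bases) and -0.27 in the longest (over 3774 bases). In the shortest group 2.99% of genes were counted as higher and 0.808% as lower, and in the longest 0.445% were higher and 2.55% lower. After each gene's difference was centred on the median of genes of like length, a choice made after the values were seen, 247 genes were higher and 139 lower. The median of all genes was then 0.03, and 18 list medians moved by more than 0.1, among them those of the Pramel genes (1.16), the neural markers (-0.03), the feeder and fibroblast markers (0.17), the H3K9 methylation genes (-0.06), the Ctcf and cohesin genes (-0.13) and the paternally expressed imprinted genes (0.05). The part of length in single results was not tested beyond this centring.

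**Figure D3:**
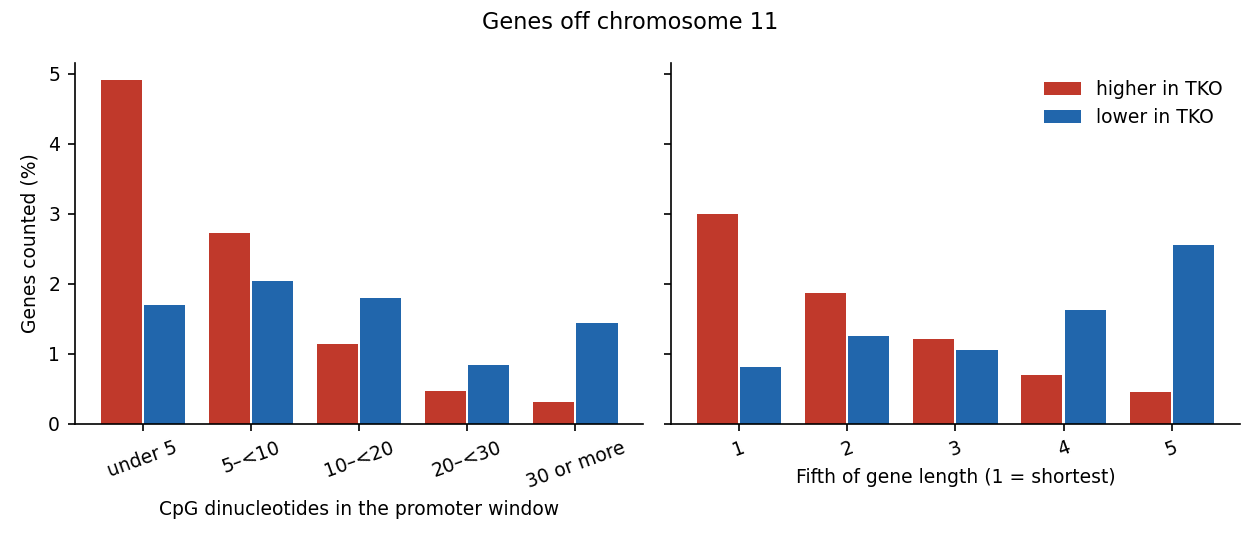
Percent of genes off chromosome 11 counted as higher (red) or lower (blue) in TKO, by the number of CpGs in the promoter window (left) and by 5 equal groups of gene length (right). The higher share runs down from 4.91% to 0.309% with CpG number and from 2.99% to 0.445% with length.

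Chromosome 11 stood apart from the other chromosomes. Its 654 genes with at least 10 CPM had a median log2 difference of 0.37, which is 1.29-fold, and 84.9% of them were above 0. The medians of the other 19 chromosomes lay between -0.12 and -0.01. In windows of 20 Mb along chromosome 11 the medians ran from 0.31 to 0.43, so the shift was spread over the whole chromosome. Of its 1084 measured genes 58 were higher (5.35%) and 5 lower, and it held 24.6% of all higher genes against 8.06% of the genes measured. Without chromosome 11, 178 genes were higher (1.44%) and 180 lower (1.46%). Set against the WT J1 library, the chromosome 11 median was 0.60 for TKO and 0.22 for DKO. Set against the library of WT TT2 cells, another wild-type line, it was -0.05 for TKO, -0.44 for DKO and -0.66 for WT J1. RNA counts cannot tell a change in gene activity from a change in the number of chromosome copies, and the part of this shift in the results on single genes was not tested.

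Chromosome 11 holds several of the genes named above. Calcoco2 and Tex19.1 lie there. H3f3b, which encodes histone H3.3, was the most abundant gene counted, with 4066 CPM in TKO, against 1943 CPM in DKO and 4019 CPM in WT J1, and is named after its values were seen. Nefh, a neurofilament gene, had 58.7 CPM in TKO, against 22.8 CPM in DKO and 4.69 CPM in WT J1. Sparc, a matrix protein gene of parietal endoderm, had 209 CPM in TKO, against 98.9 CPM in DKO and 57.0 CPM in WT J1. Mrm3, Nt5c3b, Zmat5, Klhl10 and Elobl, all among the 20 largest increases of protein-coding genes that reach 10 CPM, lie on this chromosome too, with 13.1 CPM in TKO against 4.27 CPM in DKO for Elobl.

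**Figure D4:**
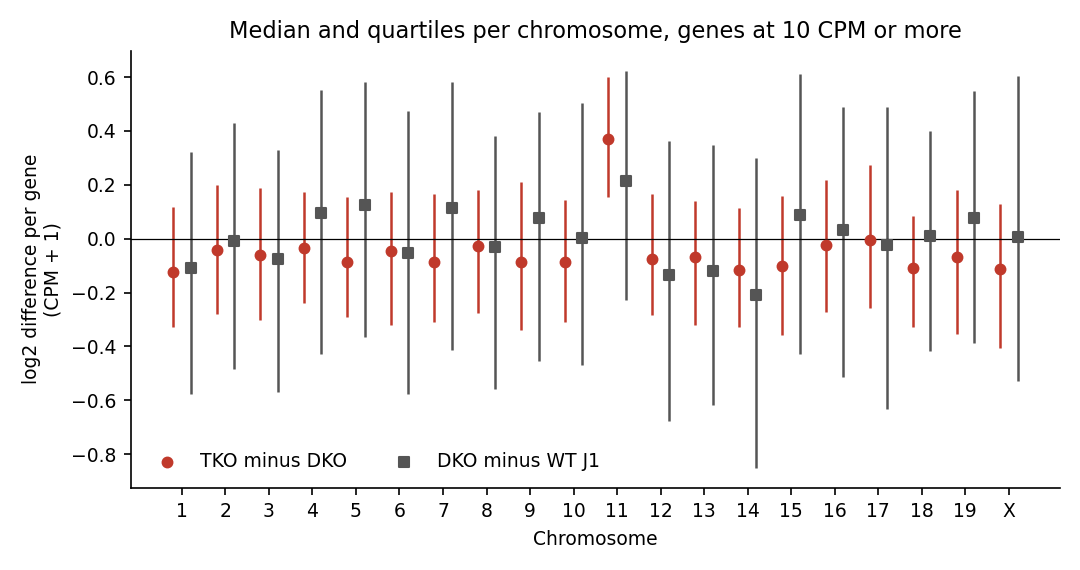
Median log2 difference per chromosome (points) with the quartiles (lines) over genes that reached 10 CPM, for TKO minus DKO (red circles) and DKO minus WT J1 (grey squares), which share the DKO library. For TKO minus DKO the median is 0.37 on chromosome 11 and between -0.12 and -0.01 on the other 19 chromosomes.

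Gene families of the X chromosome went different ways. The Xlr genes are lymphocyte-regulated X-linked genes related to synaptonemal complex proteins. Of 10 measured members 4 were lower and none higher, beside 1.38% lower and 1.75% higher over all genes, and the median was -0.35. Xlr3c had 45.7 CPM in TKO, against 152 CPM in DKO and 0.528 CPM in WT J1 (3.33-fold lower, interval 3.08 to 3.61). Xlr5a had 10.6 CPM in TKO and 32.4 CPM in DKO, Xlr5c had 5.74 CPM in TKO and 26.2 CPM in DKO, and Xlr5b had 4.28 CPM in TKO and 16.4 CPM in DKO. These 4 lie between 73107621 and 73293863 on chromosome X, where the uncounted Xlr3b, Xlr4b and Xlr4c lie among them. The other 6 were uncounted, with 87.6 CPM in TKO, 106 CPM in DKO and 0.396 CPM in WT J1 for Xlr3a. Both mutants were far above WT J1, with list medians of 4.65 for TKO and 5.02 for DKO against it. The members are near-identical in part, so the sharing of reads among them is uncertain.

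Of 12 measured Rhox homeobox genes, Rhox10 alone was counted, beside 3.13% counted over all genes. Rhox10 had 26.1 CPM in TKO, against 11.1 CPM in DKO and 2.58 CPM in WT J1, and 12 others of the 32 listed had no count in either mutant. Of 15 measured Mage genes none was counted, which lies near that share. Magea8 had 19.7 CPM in TKO, against 13.2 CPM in DKO and no count in WT J1. Scml2, a Polycomb-related germline gene on chromosome X, had 43.7 CPM in TKO, against 13.9 CPM in DKO and 1.52 CPM in WT J1 (3.15-fold, interval 2.72 to 3.66). The whole chromosome X had 5 genes higher (0.954%) and 16 lower (3.05%) of 524 measured, beside 1.75% higher and 1.38% lower over all genes.

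Imprinted genes, which depend on maintained methylation to keep one parental copy silent, were counted in both directions. Beside 1.75% higher and 1.38% lower over all genes, of 33 measured genes listed as paternally expressed 1 was higher and 1 lower (median -0.07). Of 21 listed as maternally expressed 2 were higher and 2 lower (median -0.00). Parental class was taken from the lists and not measured here. The placing of Ddc as maternally and Zim1 as paternally expressed is doubtful. The Dlk1-Dio3 domain on chromosome 12 gave 1 of each kind higher: Rtl1, a retrotransposon-derived gene, had 2.81 CPM in TKO and 0.771 CPM in DKO, and the non-coding Rian had 41.5 CPM in TKO, against 18.4 CPM in DKO and 2.38 CPM in WT J1. Meg3 of the same domain had 21.7 CPM in TKO and 12.8 CPM in DKO, short of the limit. Rtl1 lies opposite an antisense transcript and strand use in counting is not given, so its reads are uncertain. Rtl1 was also measured through TKO alone, where it had to be higher. Peg3, a zinc finger gene, had 35.2 CPM in TKO, against 74.6 CPM in DKO and 7.60 CPM in WT J1. Igf2r, the receptor that clears Igf2, had 15.1 CPM in TKO, against 31.5 CPM in DKO and 25.6 CPM in WT J1. Ddc on chromosome 11 was higher and Atp10a lower. After centring by length neither Peg3, Igf2r nor Atp10a passed the limit.

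The genes lower in TKO held metabolic, stress and signalling genes. Beside Dnmt1, the leading protein-coding genes were Eif4g3, a translation initiation scaffold, with 2.49 CPM in TKO and 17.1 CPM in DKO, and Bhlhe40, a transcriptional repressor in the circadian clock, with 1.89 CPM in TKO, against 12.8 CPM in DKO and 30.7 CPM in WT J1. Aass, the first enzyme of lysine breakdown, had 89.4 CPM in TKO, against 308 CPM in DKO and 2.05 CPM in WT J1 (3.45-fold lower, interval 3.26 to 3.64). Ptch1, the Hedgehog receptor, had 33.7 CPM in TKO, against 116 CPM in DKO and 26.5 CPM in WT J1 (3.46-fold lower, interval 3.16 to 3.79). Of other Hedgehog genes, named after their values were seen, the antagonist Hhip had 3.84 CPM in TKO and 11.8 CPM in DKO. The transcription factor Gli1 had 0.974 CPM in TKO and 4.03 CPM in DKO, and was measured through DKO alone, where it had to be lower. The signal transducer Smo was uncounted with 8.01 CPM in TKO and 10.97 CPM in DKO. Apoe, a lipid carrier, had 136 CPM in TKO, against 353 CPM in DKO and 831 CPM in WT J1.

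The integrated stress response is the pathway that senses amino acid shortage and unfolded protein through the transcription factor Atf4. Of 28 measured genes in a list of this response and of amino acid genes, 6 were lower and none higher. Over all genes 1.38% were lower and 1.75% higher. The list median was -0.52 and stayed at -0.53 after centring by length. Atf4 had 26.8 CPM in TKO, against 78.2 CPM in DKO and 184 CPM in WT J1 (2.92-fold lower, interval 2.63 to 3.24). Its target Ddit3 had 4.98 CPM in TKO, against 12.6 CPM in DKO and 47.8 CPM in WT J1. Chac1, which degrades glutathione, had 2.81 CPM in TKO, against 8.77 CPM in DKO and 63.0 CPM in WT J1. Nupr1, a stress-induced chromatin protein, had 6.22 CPM in TKO, against 23.6 CPM in DKO and 284 CPM in WT J1. Each of these 4 ran from WT J1 as the highest library through DKO to TKO as the lowest. Aldh18a1, the first step of proline synthesis, had 11.9 CPM in TKO and 29.996 CPM in DKO. Vldlr, the last of the 6 lower genes, had 0.650 CPM in TKO and 2.55 CPM in DKO. Vldlr was measured through DKO alone, where it had to be lower. Asns, the asparagine synthetase gene, was close in the mutants, with 549 CPM in TKO, 544 CPM in DKO and 985 CPM in WT J1, and is named after its values were seen.

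Glycolysis and hypoxia genes had 5 of 37 measured members lower and none higher, beside 1.38% lower and 1.75% higher over all genes. The median was -0.44, or -0.33 after centring by length, and 33 of the 37 lay below 0. Bnip3, a mitophagy receptor, had 158 CPM in TKO, against 389 CPM in DKO and 156 CPM in WT J1 (2.47-fold lower, interval 2.36 to 2.58). Egln3, an oxygen-sensing prolyl hydroxylase, had 2.87 CPM in TKO and 10.3 CPM in DKO. Bhlhe41, the partner of Bhlhe40, had 0.595 CPM in TKO, against 5.63 CPM in DKO and 23.5 CPM in WT J1 (9.46-fold lower, interval 5.05 to 19.6). Bhlhe41 was measured through DKO alone, where it had to be lower. Tpi1, a glycolytic enzyme, had 195 CPM in TKO, against 395 CPM in DKO and 221 CPM in WT J1. For Bnip3, Egln3 and Tpi1, DKO stood highest of the 3 libraries, while for the Bhlhe genes WT J1 did.

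Among formative and primed pluripotency genes 4 of 20 measured members were lower and none higher, beside 1.38% lower and 1.75% higher over all genes. The median was -0.50. After centring by length 3 were lower and the median was -0.31. Lefty1, a Nodal antagonist, had 24.2 CPM in TKO, against 65.4 CPM in DKO and 128 CPM in WT J1 (2.70-fold lower, interval 2.42 to 3.02). Fgf15, a growth factor of the epiblast, had 9.09 CPM in TKO, against 23.9 CPM in DKO and 4.03 CPM in WT J1. The Wnt effector Lef1 and the tight junction gene Cldn6 were the other 2. Lef1 had 0.758 CPM in TKO and 2.67 CPM in DKO, and was measured through DKO alone, where it had to be lower. Cldn6 had 28.1 CPM in TKO and 57.7 CPM in DKO. Fgf5, the usual marker of the formative state, was low in both mutants, with 0.325 CPM in TKO and 1.30 CPM in DKO, and was uncounted.

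Epithelial keratin and junction genes had 5 of 27 measured members lower and none higher, beside 1.38% lower and 1.75% higher over all genes. The median was -0.28. The 5 lower genes were the claudins Cldn3, Cldn4 and Cldn6, the splicing regulator Esrp1 and Krt17. Krt8 and Krt18, the keratins of simple epithelia, were uncounted and are named after their values were seen. Esrp1 had 17.9 CPM in TKO, against 51.2 CPM in DKO and 1.85 CPM in WT J1, and Cldn3 had 1.62 CPM in TKO and 7.88 CPM in DKO. Neural markers had 3 of 18 lower and 1 higher, beside the same shares over all genes. Sox11 had 2.87 CPM in TKO and 13.04 CPM in DKO, Neurod1 had 3.30 CPM in TKO and 9.72 CPM in DKO, and Pax6 had 11.4 CPM in TKO, against 24.2 CPM in DKO and 0.264 CPM in WT J1. In bulk RNA, fewer cells of a type and less RNA per cell cannot be told apart.

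**Figure D5:**
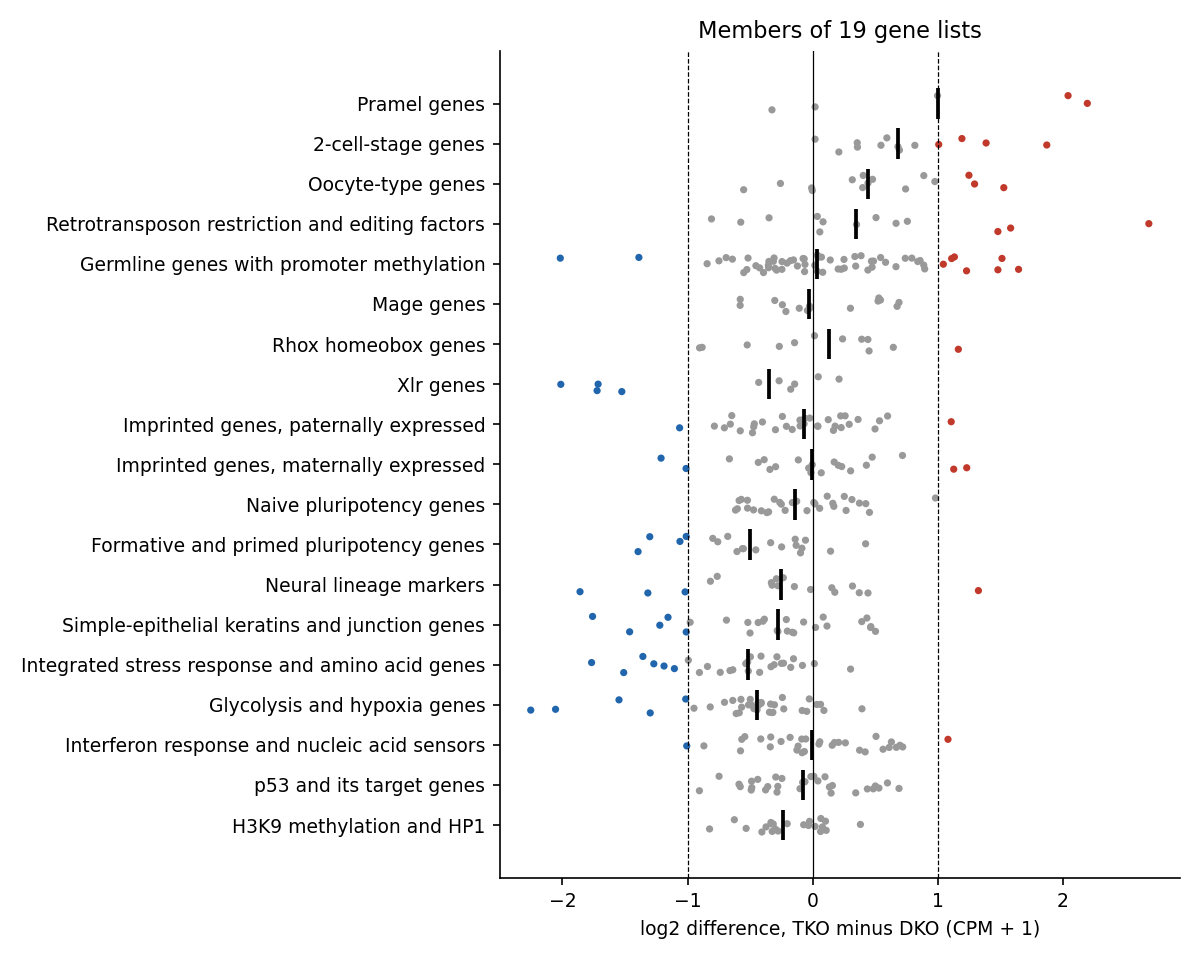
Log2 difference of TKO minus DKO for the measured members of 19 gene lists, 1 point a gene, with higher genes in red, lower genes in blue, others in grey, the list median as a black bar and dashed lines at 1 and -1. The medians of the Pramel (1.00) and 2-cell-stage (0.68) lists lie farthest to the right and that of the stress response list (-0.52) farthest to the left.

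Genes of the stem cell state were among the lists with no counted member. None of 30 measured naive pluripotency genes was counted, with a median of -0.15. Nanog had 476 CPM in TKO, against 473 CPM in DKO and 386 CPM in WT J1, and is named, with Pou5f1 and Klf5, after its values were seen. Sox2 had 112 CPM in TKO and 173 CPM in DKO, and Tbx3 lay closest to the limit with 10.3 CPM in TKO, against 4.74 CPM in DKO and 23.1 CPM in WT J1. Pou5f1 had 12.5 CPM in TKO, against 18.4 CPM in DKO and 10.2 CPM in WT J1. Klf5 had 19.2 CPM in TKO, against 24.01 CPM in DKO and 120 CPM in WT J1, and Tfcp2l1 had 53.2 CPM in TKO, against 81.3 CPM in DKO and 237 CPM in WT J1. All 30 members were at 1 CPM or more in DKO, so the defining markers of the labelled cell type were present, some of them far below WT J1 in both mutants. None of 31 p53 pathway genes, 22 genes of H3K9 methylation and HP1, 18 Polycomb genes, 34 replication genes, 29 sterol biosynthesis genes or 18 Ctcf and cohesin genes was counted either. With 3.13% of all genes counted, a count of 0 in lists of these sizes lies near the share over all genes. Of 32 interferon and nucleic acid sensing genes, Ifi35 on chromosome 11 was higher (27.7 CPM in TKO and 12.6 CPM in DKO) and Ifitm3 lower (361 CPM in TKO and 725 CPM in DKO), with a median of -0.00. Ezh2, the Polycomb methyltransferase, had 117 CPM in TKO, against 170 CPM in DKO and 181 CPM in WT J1. Markers of feeder cells and fibroblasts had 1 of 10 measured members higher, Mfap5, with 23.5 CPM in TKO, against 8.18 CPM in DKO and 11.7 CPM in WT J1. Of those 10 members 6 lay above 0, with a median of 0.29. The summed level of the list, 169 CPM in TKO, against 232 CPM in DKO and 301 CPM in WT J1, was mostly Fn1, the fibronectin gene, with 119 CPM in TKO, against 196 CPM in DKO and 278 CPM in WT J1.

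Small non-coding RNAs were uneven. Of 32 measured small nucleolar RNA genes 7 were higher and none lower, with a median of 0.58, beside 1.75% higher over all genes. All have the lengths of the shortest length group, which off chromosome 11 had a median of 0.13 and 2.99% higher. Of the 32, 7 (Snora73a among them) were measured through TKO alone. Snora73a, chosen after its values were seen, had 7.36 CPM in TKO, against 0.534 CPM in DKO and 0.396 CPM in WT J1, whereas its near copy Snora73b had 30.5 CPM in TKO and 31.7 CPM in DKO. Most such genes lie inside host genes, so reads from host introns cannot be told apart from them. Of 391 long non-coding RNA genes 20 were higher and 5 lower, beside 1.75% higher and 1.38% lower over all genes, so the lower count lay near that share. Those measured through 1 library alone were not set apart. The lower ones included Firre, an X-linked nuclear RNA, with 6.93 CPM in TKO, against 16.8 CPM in DKO and 37.4 CPM in WT J1. Neat1, the paraspeckle RNA, had 10.0 CPM in TKO, against 22.1 CPM in DKO and 176 CPM in WT J1. Both were named after their values were seen.

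Some counted genes had counted neighbours. Off chromosome 11, 16 groups of higher genes and 13 groups of lower genes held at least 2 genes of the same direction within 200 kb of each other. The lens gamma-crystallin genes Cryga, Crygc, Crygd and Cryge, with Akr1cl beside them on chromosome 1 (65013078 to 65103363), formed the largest group of higher genes. Crygd had 7.52 CPM in TKO, against 2.85 CPM in DKO and no count in WT J1. Nthl1, Slc9a3r2, Ndufb10 and Mrps34 on chromosome 17 (24632680 to 24896289) formed another, with 455 CPM in TKO, against 226 CPM in DKO and 186 CPM in WT J1 for Ndufb10, a subunit of respiratory complex I. These groups were found after the values were seen, and the gamma-crystallin genes resemble one another. How many such groups like numbers of uncounted genes would form was not worked out, so no share stands beside these counts.

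The counted genes were also read in lines that share no library with TKO or DKO, those lacking the H3K9 methyltransferases G9a and GLP (the line labelled G9a/GLP DKO) or lacking G9a with a substituted G9a transgene added back (G9a CM), each against WT TT2. Each is 1 clone and 1 library on a C57BL/6xCBA background, unlike TKO and DKO. Of 215 genes higher in TKO and measured there, 93 (43.3%) were higher and 16 (7.44%) lower in G9a/GLP DKO than in WT TT2, where 7.37% of all genes measured in both were higher and 7.86% lower. They made up 7.28% of the 1278 genes higher in that line. Of 170 genes lower in TKO, 29 (17.1%) were higher and 34 (20.0%) lower in G9a/GLP DKO. In G9a CM, 45 of 196 genes higher in TKO (23.0%) were higher and 16 (8.16%) lower, where 4.59% of all genes were higher and 5.63% lower. Of 174 genes lower in TKO, 28 (16.1%) were higher and 15 (8.62%) lower in G9a CM. Level moved with being counted: off chromosome 11, 2.26% of genes in the lowest of 5 equal groups by mean CPM were higher in TKO and 0.243% in the highest, and its part in these shares was not tested.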

How the data were processed

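STAR 2.5.3a, RSEM and the GRCm38 (mm10) build are named in the submitters' processing notes. The deposited expected counts per gene share out reads that match several genes, and the deposited TPM values are scaled for gene length; a posterior standard deviation and a length stand beside them. The annotation release and any use of strand are not given in the sources used here. Reads carry no molecular identifiers, so intervals cover counting error only.

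Expected counts were rounded and scaled to CPM with TMM factors over all 10 RNA libraries (edgeR 4.0.16). A pseudocount of 1 CPM was added before log2. A library with 0 counts has a floor of 3 counts. Intervals were computed in scipy 1.17.1, and the rule was checked on simulated counts. Symbols were matched for 99.7% of gene IDs. Coordinates and promoter windows came from RefSeq tables (GRCm38.p6), and windows matched 75.3% of measured genes.

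Named genes are the targeted genes, the 20 largest differences each way among protein-coding genes that reach 10 CPM, and up to 6 per list of the 38 lists. The members and lists were chosen with earlier results of these data known. Alternatives were other scalings (DESeq2 1.42.0 size factors among them), deposited TPM, minimums, pseudocounts, limits, and, added after seeing the data, no chromosome 11 and centring by length.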

Additional observations from a re-analysis of the deposited data

How the results depend on the processing

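The counts of 236 higher and 185 lower genes stayed within 1.5 times under total counts (255 and 191), DESeq2 size factors (236 and 191), TMM factors over the 3 libraries of the 129S4/SvJae strain (237 and 188), deposited TPM (274 and 132), no minimum, the limit on the posterior standard deviation (221 and 181), without chromosome 11 (178 and 180) and centring by length (247 and 139). They moved with the pseudocount, to 385 higher and 303 lower at 0.5 and to 56 and 51 at 5, with a log2 limit of 1.5 (50 and 25) and, for higher genes, with a minimum of 5 CPM (154). That minimum kept 143 of the lower genes. Fewer low genes can pass under the larger pseudocount and minimum by construction. Deposited TPM kept 172 of the higher and 97 of the lower genes, and centring by length kept 193 and 115. No gene counted in the main setting was counted in the opposite direction under any of these. Apart from the other scalings, these settings kept the sign or the count interval of each gene. A reversal could not occur there, so its absence is no check. The median of the feeder and fibroblast list was 0.29 and became -0.15 at a minimum of 5 CPM, with fewer members; the other list medians did not change sign with both values at least 0.1 from 0. No paired analysis was possible because each group had 1 library.

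With 1 library a group, no difference here has a replicate check.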
